A study of Mus musculus with 12 samples.

Results

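The RNA subunits of ribonuclease P, ribonuclease MRP and telomerase, together with a small Cajal body RNA, were followed through the first hours after neural induction of C17.2 cells. These 6 genes, Rpph1, Rmrp, Rprl2, Rprl3, Terc and Scarna2, were taken by symbol from a table of 35321 genes, and all 6 had reads in every library. They were chosen by their measured differences between nuclei and mitochondria in these libraries, so their differences are described with standard errors and without a test. C17.2 is an immortalised mouse neural progenitor line, labelled with the strain CD1 x C57BL/6 and obtained from CellBank Australia. All cells came from growth in DMEM/F12 with fetal bovine serum, and induction replaced this by Knockout DMEM with GlutaMAX and N2 supplement. Mitochondria and nuclei were isolated 0, 1 and 2 h after induction, which gave 6 groups of n = 2 libraries. No group at 1 or 2 h kept the growth medium, so induction, loss of serum and the medium change cannot be told apart. Ribosomal RNA was depleted before library preparation with the NEBNext Ultra II RNA kit.

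Ribonuclease P removes the 5′ leader of precursor tRNAs, and its RNA subunit, the product of Rpph1, is the catalytic part. Ribonuclease MRP is a related particle built on the Rmrp RNA, shares most of its proteins with ribonuclease P, and acts in ribosomal RNA processing. Both RNAs are made by RNA polymerase III, act mainly in the nucleus and nucleolus, and have been reported to enter mitochondria in mammalian cells, where a separate protein-only ribonuclease P matures the mitochondrial tRNAs. Terc is the RNA template and scaffold of telomerase. It carries an H/ACA domain. In Cajal bodies, scaRNAs such as Scarna2 guide the modification of spliceosomal snRNAs. Rprl2 and Rprl3 are annotated as ribonuclease P RNA-like genes.

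The sequences below, from GENCODE M21 on GRCm38, are shown because resemblance and overlap decide which reads can be assigned to which gene. Rpph1 (chr14:50807449-50807767, minus strand) is 319 bases long, of which positions 1 to 300 are shown. Capitals in it mark the 37 bases, positions 109 to 145 from its 5′ end, that form its longest run identical with Rprl3. Capitals in Rprl3 (chr8:3803069-3803358, minus strand) and Rprl2 (chr3:22251374-22251663, plus strand), 290 bases each, mark every base that differs from Rpph1 or lies past the local alignment with it.
Rpph1: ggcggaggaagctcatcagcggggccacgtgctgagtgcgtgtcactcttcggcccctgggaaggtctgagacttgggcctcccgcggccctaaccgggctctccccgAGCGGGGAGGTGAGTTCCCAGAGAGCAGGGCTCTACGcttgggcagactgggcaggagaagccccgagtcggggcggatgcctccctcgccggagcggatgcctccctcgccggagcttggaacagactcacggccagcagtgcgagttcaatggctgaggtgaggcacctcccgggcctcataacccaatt
Rprl3: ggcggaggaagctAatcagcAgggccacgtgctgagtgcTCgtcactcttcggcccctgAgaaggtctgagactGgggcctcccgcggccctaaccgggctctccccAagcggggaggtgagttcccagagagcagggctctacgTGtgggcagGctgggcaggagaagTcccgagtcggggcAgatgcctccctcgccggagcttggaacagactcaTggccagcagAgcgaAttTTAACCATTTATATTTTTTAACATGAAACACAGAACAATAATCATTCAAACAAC
Rprl2: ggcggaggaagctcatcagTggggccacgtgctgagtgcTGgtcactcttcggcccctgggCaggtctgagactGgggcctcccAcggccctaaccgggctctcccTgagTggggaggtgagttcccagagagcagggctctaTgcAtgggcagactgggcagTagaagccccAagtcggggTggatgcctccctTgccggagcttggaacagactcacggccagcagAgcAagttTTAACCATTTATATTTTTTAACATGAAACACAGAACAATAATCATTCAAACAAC

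Over the 236 aligned bases, Rprl3 was identical with Rpph1 at 221 positions (93.6%) and Rprl2 at 220 positions (93.2%). Both lack the 21 bases at positions 182 to 202 of Rpph1, which Rpph1 repeats directly downstream. Both end in the same 54 bases that do not align with Rpph1, and Rprl2 and Rprl3 matched each other at 267 of 290 positions (92.1%), with the last 56 bases identical. The longest run shared by Rpph1 and Rprl2 had 32 bases. How reads that fit more than 1 copy were counted is not given in the sources used here, so the values of these 3 genes are uncertain to that extent.

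Rmrp, printed below because a protein-coding gene on the other strand covers much of it, is annotated with an RNA of 271 bases. Its entry in the gene table, 281 bases, lies at chr4:43492783-43493063 on the minus strand. For Terc (chr3, minus strand), whose table entry at chr3:96414437-96414833 has 397 bases, the first 88 and the last 60 bases of the annotated RNA of 423 bases are shown for the motifs that define its roles. In the first piece, capitals mark the template CTAACCC at positions 29 to 35, which was found once in the RNA on the given strand. In the second piece, capitals mark the ACA that lies 3 bases from the 3′ end.
Rmrp: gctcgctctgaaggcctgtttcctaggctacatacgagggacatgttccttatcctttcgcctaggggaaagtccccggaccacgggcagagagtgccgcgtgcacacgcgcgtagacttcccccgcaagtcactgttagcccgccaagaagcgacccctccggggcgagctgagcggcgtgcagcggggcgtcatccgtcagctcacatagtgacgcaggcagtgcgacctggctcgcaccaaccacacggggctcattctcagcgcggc
Terc 5′ end: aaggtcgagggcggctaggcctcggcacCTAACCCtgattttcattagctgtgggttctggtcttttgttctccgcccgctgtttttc
Terc 3′ end: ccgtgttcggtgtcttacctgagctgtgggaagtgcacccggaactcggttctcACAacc
Of 139947 GENCODE M21 transcripts of at least 88 bases, 0.259% held CTAACCC in their first 88 bases and 2.45% had ACA at the same distance from the end.

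The gene table gives log2 RPM, the reads of a gene per M reads of the library's scaling total, from which whole reads were recovered. The scaling totals ran from 30.3 to 42.3 M reads, and 4.56 to 9.25 M of them lay in genes. That share was 20.0% ± 1.63 (SD, n = 2) and 21.7% ± 0.311 in mitochondria and nuclei at 0 h, and 13.9% to 15.9% on average in the 4 groups of 1 and 2 h. Between-gene comparisons over time were therefore made on a centred scale, on which each library is shifted so that the median of the 14440 genes with reads in every library is the same. On the deposited scale the median gene was 0.22 and 0.28 lower (log2) at 1 and 2 h in mitochondria, and 0.64 and 0.51 lower in nuclei. In mitochondria, replicate 2 of 0 h and replicate 1 of 1 h, and in nuclei, replicate 1 of both 0 h and 1 h, stand apart from the other 8 over all genes, and values without them are given where they matter. The 7 listed progenitor markers summed to 14828 to 27478 reads a library, led by Vim (10771 to 20295) and Nes (3535 to 6733), with Sox1 at 0 and Pax6 at most 3. The 4 neuron markers summed to 322 to 779, from Tubb3 (144 to 351) and Map2 (178 to 491), with Dcx at 0 and Rbfox3 at most 1. The 3 oligodendrocyte lineage markers summed to 739 to 1671, mostly Sox10 (721 to 1642), beside Mbp (6 to 40) and Olig2 (0 to 14). The astrocyte and microglia markers summed to 3 to 16 and 18 to 82, with Aqp4 at 0. Tubb3 (0.64 ± 0.07), Map2 (0.45 ± 0.06) and Sox10 (0.58 ± 0.03) were called higher in mitochondria (log2 ± SE). So were the progenitor markers Fabp7 (1.17), Sox2 (0.37) and Vim (0.33), while Nes was called lower (-0.08). At 2 h in mitochondria and nuclei, Tubb3 (0.48 and 0.88, ± 0.13) and Mbp (2.52 and 2.56, ± 0.48) were called higher on the centred scale. Map2 was not called at 2 h in either fraction (-0.16 and -0.08). Nes was called lower in mitochondria (-0.30) and higher in nuclei (0.12). Olig2 was called higher in mitochondria (3.18) and Sox10 in nuclei (0.33). As deposited in nuclei at 2 h, all 6 tested progenitor markers were called lower, as were 8031 of all 21078 genes. Of the 3 oligodendrocyte lineage markers, 1 was called higher and 1 lower there. The nuclear rises of Nes and Sox10 thus depend on the scale. Tubb3 was not called higher in either fraction as deposited. The part of these markers in the results was not tested. All 13 mitochondrially encoded mRNA genes are listed at 0 in this table, so it offers no check of the mitochondrial preparations by their own transcripts.

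Rpph1 RNA, the catalytic RNA of ribonuclease P, was far more abundant in nuclei. In mitochondria it measured 118 and 115 RPM at 0 h, 119.6 and 112 RPM at 1 h, and 108 and 98.5 RPM at 2 h, from 3569 to 4461 reads. In nuclei it measured 1096 and 1028 RPM at 0 h, 558 and 514 RPM at 1 h, and 635 and 606 RPM at 2 h, from 16924 to 43495 reads. Every nuclear library stood above every mitochondrial library, and the nuclear libraries of 0 h were the highest.

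Rprl3 RNA was the more abundant of the ribonuclease P RNA-like genes. It measured 10.6 and 10.1 RPM in mitochondria at 0 h, 10.98 and 9.84 RPM at 1 h, and 9.55 and 9.79 RPM at 2 h. In nuclei it measured 74.6 and 72.1 RPM at 0 h, 47.5 and 43.9 RPM at 1 h, and 62.2 and 59.1 RPM at 2 h. Its mitochondrial values hardly spread, and its nuclear libraries were lowest at 1 h.

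Rprl2 RNA rested on few reads, 13 to 32 in a mitochondrial library and 103 to 220 in a nuclear one. Its mitochondrial values were 0.529 and 0.844 RPM at 0 h, 0.407 and 0.782 RPM at 1 h, and 0.559 and 0.872 RPM at 2 h. Its nuclear values were 5.29 and 5.20 RPM at 0 h, 3.86 and 3.13 RPM at 1 h, and 3.85 and 4.22 RPM at 2 h. The 2 libraries of each mitochondrial group differed more from each other than the mitochondrial groups did.

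Rmrp, the RNA of ribonuclease MRP, was the most abundant of the 6. It measured 274 and 301 RPM in mitochondria at 0 h, 265 and 279 RPM at 1 h, and 240.0 and 244 RPM at 2 h, from 8280 to 11046 reads. In nuclei it measured 1639 and 1643 RPM at 0 h, 935 and 949.7 RPM at 1 h, and 957 and 997 RPM at 2 h, from 30485 to 69478 reads. Per kilobase of gene span, Rmrp ranked 1 among all genes of the table in every library, while Rpph1 ranked 2 in nuclei and 3 in mitochondria. The span includes introns, which places spliced genes lower in that order. By RPM alone, Rmrp ranked 24 to 37 in mitochondria and 4 to 5 in nuclei. Rpph1 ranked 90 to 182 and 5 to 10 by RPM.

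Terc, the telomerase RNA, was scarce. It had 14, 20, 14, 18, 21 and 14 reads in the mitochondrial libraries in the order of time and replicate, which is 0.382 to 0.586 RPM. In nuclei it had 54 and 89 reads at 0 h, followed by 40 and 48, then 36 and 34, which is 0.834 to 2.10 RPM. The nuclear libraries stayed above the mitochondrial ones, and the nuclear replicates of 0 h were the pair farthest apart in reads.

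Scarna2, a small Cajal body RNA on chr3:108554338-108554751 (minus strand), had 251 to 367 reads in mitochondria and 686 to 2002 in nuclei. Its mitochondrial values were 12.1 and 10.6 RPM at 0 h, 8.94 and 9.03 RPM at 1 h, and 8.10 and 6.84 RPM at 2 h. Its nuclear values were 48.7 and 47.3 RPM at 0 h, 21.04 and 21.9 RPM at 1 h, and 25.7 and 23.9 RPM at 2 h. The groups of 1 and 2 h lay below 0 h in both fractions on this scale, which carries the shared shift described above.

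**Figure D1:**
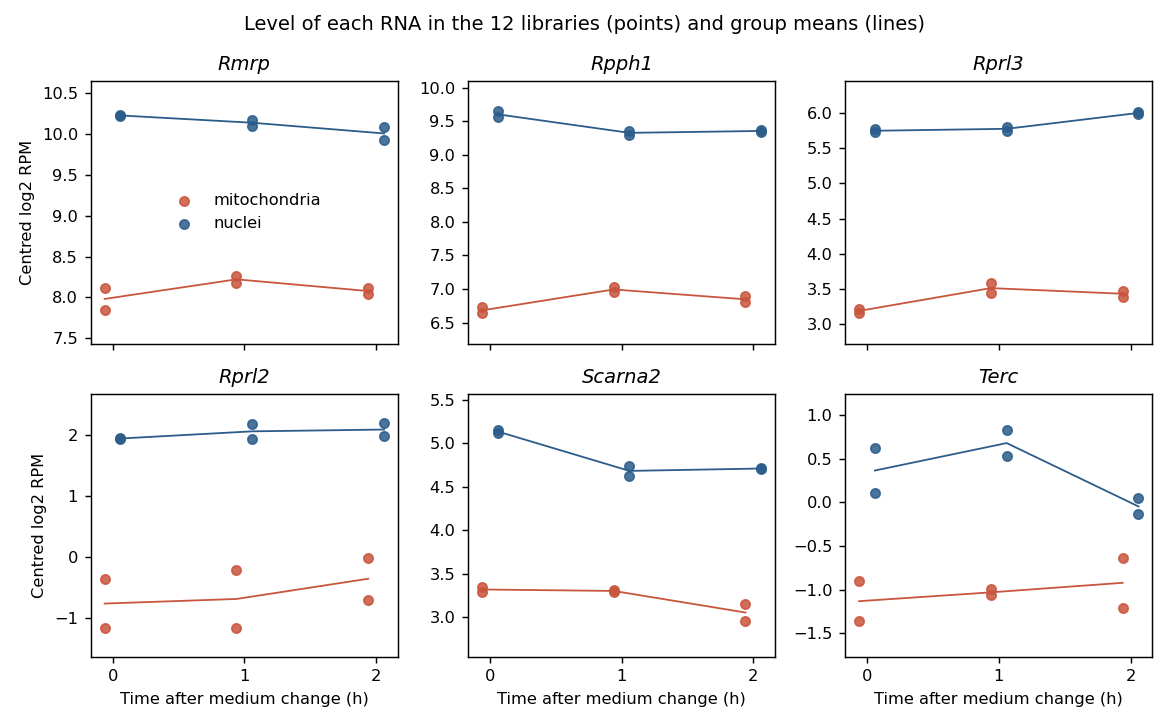
Centred log2 RPM (y axis) of each RNA against time in hours (x axis), with a point for each of the 12 libraries and a line through the means of the 2 libraries of a group. The nuclear libraries lie above the mitochondrial libraries in all 6 panels, with the smallest separation for Terc at 2 h.

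Per kilobase, the order of levels was Rmrp, Rpph1, Rprl3, Scarna2, Rprl2 and Terc in every library. In nuclei the ranges were 3327 to 5847, 1612 to 3437, 151 to 257, 50.8 to 118, 10.8 to 18.3 and 2.10 to 5.30 RPM per kb. In mitochondria they were 854 to 1071, 309 to 375, 32.9 to 37.9, 16.5 to 29.3, 1.40 to 3.01 and 0.961 to 1.48 RPM per kb. The ranges of neighbours in this order overlapped for Rmrp and Rpph1 in nuclei and for Rprl2 and Terc in mitochondria, and for no others. Together the 6 RNAs took 1.09% to 1.34% of the reads in genes in nuclei and 0.196% to 0.257% in mitochondria. Less of an RNA per nucleus and fewer nuclei that hold it cannot be told apart in such bulk preparations.

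Each of the 6 RNAs was lower in mitochondrial than in nuclear libraries at each time, without overlap, where 22.0%, 34.9% and 20.1% of the genes tested were so at 0, 1 and 2 h. Over all 12 libraries the fractions were separated in this way for all 6, against 1.55% of the 21078 genes. The centred log2 difference over the 3 times was -2.63 ± 0.21 (SE) for Rprl2, -2.59 ± 0.03 for Rpph1, -2.46 ± 0.03 for Rprl3 and -2.03 ± 0.05 for Rmrp. It was smaller for Scarna2 (-1.62 ± 0.04) and Terc (-1.36 ± 0.17). These correspond to 6.21-fold, 6.00-fold, 5.503-fold, 4.09-fold, 3.06-fold and 2.57-fold lower levels in mitochondria. Among the 8411 genes with at least 100 reads on average, Rpph1, Rprl3, Rmrp and Scarna2 held places 1, 3, 4 and 8 in the order from the most nuclear. The difference was part of what chose these RNAs, so none of these values stands as support for it.

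By time, the nuclear excess of Rpph1 was 2.92 (log2) at 0 h, 2.33 at 1 h and 2.51 at 2 h, each ± 0.04 (SE). Rmrp measured 2.25, 1.92 and 1.93 (± 0.09), and Scarna2 1.81, 1.38 and 1.65 (± 0.07). Rprl3 measured 2.56, 2.26 and 2.57 (± 0.06). On this centred scale the excess of Rpph1, Rmrp and Scarna2 was highest at 0 h, while Rprl3 returned to its 0 h value. Terc measured 1.496, 1.71 and 0.87 (± 0.30) and Rprl2 2.71, 2.75 and 2.45 (± 0.36). For Rprl2 the bars of 1 SE overlap at all 3 times, and for Terc the bar of 2 h overlaps neither that of 0 h nor that of 1 h. As deposited, the nuclear excess was highest at 0 h for all 6 RNAs. For Rprl3 it was then 7.07-fold, 4.39-fold and 6.27-fold at 0, 1 and 2 h.

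**Figure D2:**
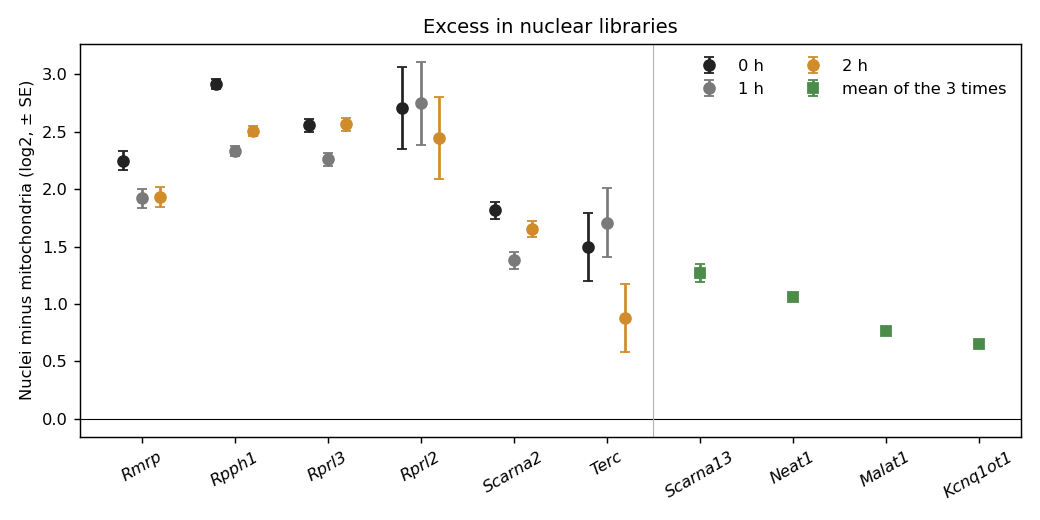
Nuclear minus mitochondrial level on the centred log2 scale (y axis), with SE bars, for the 6 RNAs at 0, 1 and 2 h (circles) and for Scarna13, Neat1, Malat1 and Kcnq1ot1 as means over the 3 times (squares). All points lie above 0, and Rpph1 at 0 h is the highest at 2.92.

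RNAs known to stay in the nucleus were measured beside them. The speckle RNA Malat1 was lower in mitochondria, with a difference of -0.77 ± 0.02 (log2, SE; limma adjusted p = 1.7e-08), the paraspeckle RNA Neat1 by -1.06 ± 0.03 (adjusted p = 9.55e-09) and the imprinted antisense RNA Kcnq1ot1 by -0.65 ± 0.03 (adjusted p = 7.5e-07). Malat1 still had 9723 to 16805 reads in the mitochondrial libraries, so RNA of this kind was present in them. Its part in the mitochondrial reads of the 6 RNAs was not tested. Of 6 further small structured RNAs in the table, all small Cajal body RNAs, 4 were called lower in mitochondria and 0 higher. Their median was -1.30, where 6.79% of all genes were called lower with a median of -0.00. The 2 not called, Scarna8 and Scarna3b, had at most 1 and 3 reads in a library. With quantile normalization 3 of the 6 were called lower, as were 1093 of all 21078 genes. Scarna13, a small Cajal body RNA with 154 to 741 reads, was lower, at -1.27 ± 0.08 (adjusted p = 4.9e-06). Scarna6 (-2.49 ± 0.39) and Scarna3a (-2.80 ± 0.39) showed larger differences, from at most 20 and 3 reads in a mitochondrial library.

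Rmrp and Rpph1 lie within or against protein-coding genes whose values follow theirs. Ccdc107 (chr4:43492900-43495921), which encodes a coiled-coil protein, runs on the opposite strand and covers 164 bases, 58.4%, of the Rmrp entry. It had 0.616 to 0.643 times the reads of Rmrp in mitochondria and 0.578 to 0.647 times in nuclei. Ccnb1ip1 (chr14:50789248-50807732), which encodes a ubiquitin ligase that acts in meiotic crossing over, runs on the same strand and covers 284 bases, 89.0%, of Rpph1. It had 0.684 to 0.716 times the reads of Rpph1 in mitochondria and 0.679 to 0.714 times in nuclei. Whether the counting used strand is not given in the sources used here. The reads of Ccdc107 and of Ccnb1ip1 therefore cannot be told apart from those of the small RNA, and their fraction differences (-1.997 ± 0.04 and -2.58 ± 0.02, log2 ± SE) repeat those of Rmrp and Rpph1.

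Parp2, a DNA repair polymerase gene that starts beside Rpph1 without overlapping it, took no such share. It had 0.0272 to 0.0404 times the reads of Rpph1 in mitochondria and 0.0051 to 0.0066 times in nuclei, and its own fraction difference was 0.03 ± 0.09 (log2 ± SE). Gm43435, a predicted gene beside Scarna2, had 0.0447 to 0.0956 times the reads of Scarna2 in mitochondria and 0.0109 to 0.0222 times in nuclei.

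**Figure D3:**
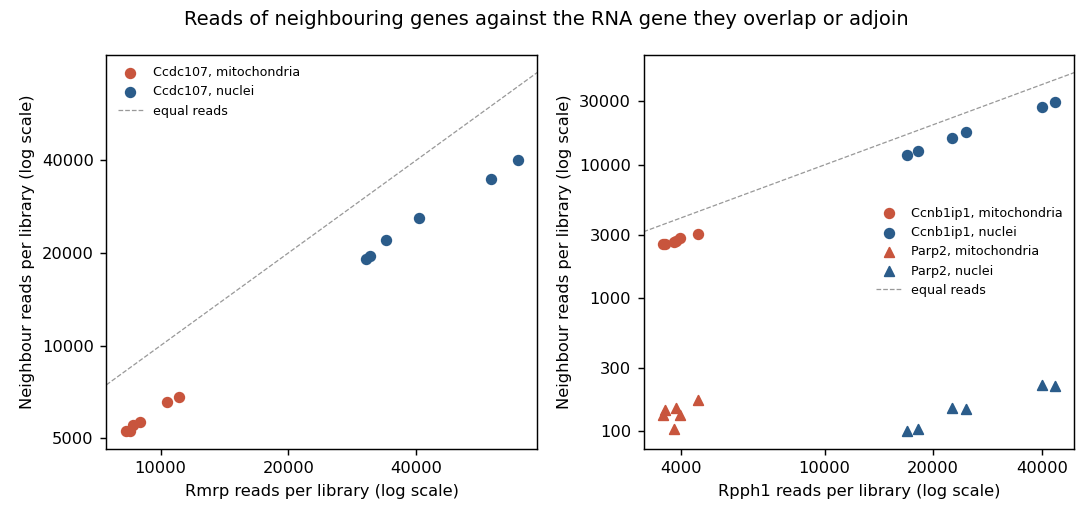
Reads per library of Ccdc107 against Rmrp (left) and of Ccnb1ip1 and Parp2 against Rpph1 (right), both axes on log scales, with a dashed line of equal reads. Ccdc107 and Ccnb1ip1 keep a fixed distance below the line in both fractions, while Parp2 stays low as Rpph1 increases.

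With time, the direction for several of the RNAs depended on the scale. On the centred scale Rpph1 was higher in mitochondria at 1 h than at 0 h by 0.31 ± 0.04 (log2 ± SE), Rprl3 by 0.32 ± 0.06 and Rmrp by 0.24 ± 0.09. These 3 groups did not overlap with 0 h, where 26.4% of all tested genes were higher without overlap. As deposited, the same differences were -0.01 for Rpph1, 0.00 for Rprl3 and -0.08 for Rmrp. At 2 h in mitochondria, Rpph1 (0.16) and Rprl3 (0.24) were higher without overlap on the centred scale, against 35.1% of genes, and Scarna2 was lower (-0.26 ± 0.07), against 25.4%. As deposited, Rpph1 (-0.18) and Rprl3 (-0.10) were lower, and Scarna2 stayed lower (-0.61). Shares of this size among all genes mean that such separation is common with 2 libraries a group.

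In nuclei at 1 h, Scarna2 was lower than at 0 h by -0.45 ± 0.07 (log2, centred), Rpph1 by -0.28 ± 0.04 and Rmrp by -0.09 ± 0.09, without overlap, where 20.1% of all genes were lower in this way. At 2 h Scarna2 measured -0.43 ± 0.07, Rpph1 -0.25 ± 0.04, Rmrp -0.22 ± 0.09 and Terc -0.41 ± 0.30. These 4 were lower without overlap, where 28.1% of genes were. Rprl3 (0.25 ± 0.06) and Rprl2 (0.15 ± 0.36) were higher without overlap, where 33.9% were. On the deposited scale all 6 were lower at both times, by -0.99 (Rpph1), -0.80 (Rmrp), -0.59 (Rprl2), -0.68 (Rprl3), -0.40 (Terc) and -1.16 (Scarna2) at 1 h, where 65.1% of genes were lower without overlap. At 2 h the deposited differences were -0.77, -0.75, -0.38, -0.27, -0.94 and -0.95 in the same order, against 59.1% of genes. The lower level of Rpph1, Scarna2 and Rmrp in nuclei thus held in direction on both scales at both times, as did that of Terc at 2 h. For Rmrp at 1 h, however, the centred difference was close to its SE, and after quantile normalization it was 0. Rprl3 and Rprl2 changed direction at 2 h. At 1 h so did Rprl2 (0.12 ± 0.36 centred), Rprl3 (0.03 ± 0.06) and Terc (0.31 ± 0.30).

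**Figure D4:**
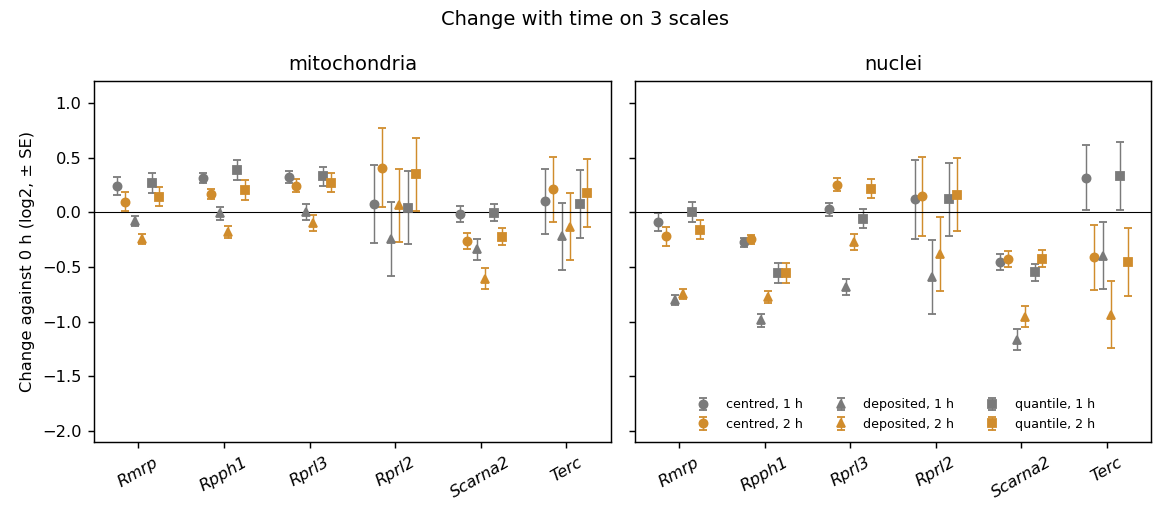
Change against 0 h (log2, y axis) with SE bars for the 6 RNAs in mitochondria (left) and nuclei (right) at 1 h (grey) and 2 h (orange), on the centred, deposited and quantile-normalized scales. In nuclei the deposited values (triangles) lie below 0 for all 6, while the centred and quantile values of Rprl3 at 2 h lie above it.

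Ratios within a library are the same on the centred and deposited scales, but not after quantile normalization. Those given here are from the gene table, and those of Rprl2 and Rprl3 to Rpph1 differ in the transcript table described below. The per-kilobase ratio of Rprl3 to Rpph1 in nuclei was 7.49% and 7.71% at 0 h, then 9.36% and 9.39%, then 10.8% and 10.7%, so the groups were ordered by time without overlap. In mitochondria it ranged from 9.62% to 10.9% with no such order. How often other gene pairs separate like this, or like the ratios below, was not counted, and separation is common with 2 libraries a group. The ratio of Scarna2 to Rpph1 was 5.35% to 7.92% in mitochondria and 2.90% to 3.55% in nuclei. In mitochondria its libraries of 0 h, 7.92% and 7.09%, were above those of 1 h, 5.76% and 6.18%, and of 2 h, 5.78% and 5.35%. Rmrp was 2.51 to 2.96 times Rpph1 in mitochondria and 1.70 to 2.10 times in nuclei, without overlap between the fractions. The ratio of Rprl2 to Rpph1 overlapped between the fractions, at 0.374% to 0.974% and 0.531% to 0.766%.

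The second deposited table, FPKM values of transcripts in 11 of the libraries (all but nuclei 1 h replicate 1), gave the same order of fractions for each RNA. Nuclear over mitochondrial mean FPKM was 9.99-fold, 4.18-fold and 6.19-fold at 0, 1 and 2 h for Rpph1, and 5.88-fold, 3.57-fold and 4.17-fold for Rmrp. For Terc it was 3.41-fold, 3.34-fold and 1.98-fold, with 0.797 to 1.23 FPKM in mitochondria and 1.78 to 4.36 FPKM in nuclei. Levels did differ between the tables. FPKM was 0.880 to 0.917 times the RPM per kb for Rmrp, 0.846 to 0.886 times for Scarna2 and 0.808 to 0.849 times for Terc. It was 0.399 to 0.487 times for Rpph1, 2.46 to 3.23 times for Rprl3 and 1.79 to 2.96 times for Rprl2. The 3 RNAs that resemble each other in sequence thus departed most between the tables, Rpph1 downward and both Rprl RNAs upward. Their levels relative to each other depend on the table, and the cause was not tested.

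**Figure D5:**
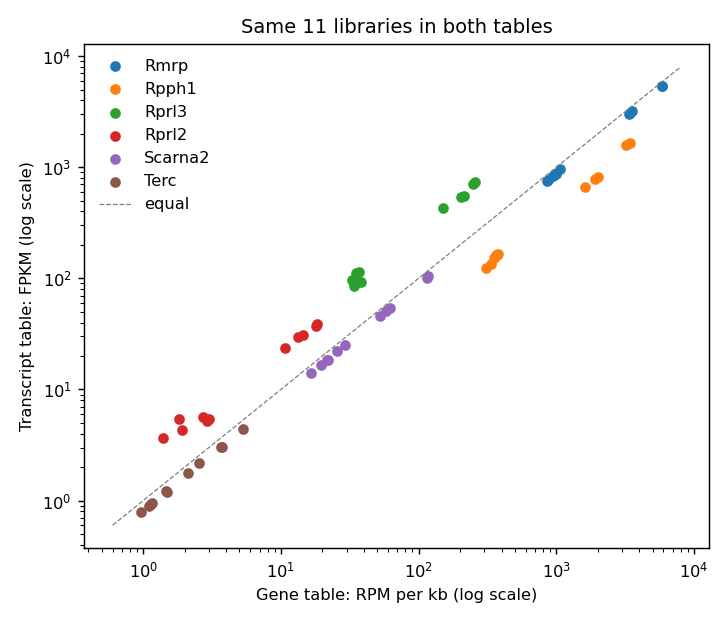
FPKM in the transcript table against RPM per kb in the gene table, both on log scales, for the 6 RNAs in the 11 libraries found in both, with a dashed line of equal values. Rpph1 lies below the line, Rprl2 and Rprl3 lie above it, and Rmrp, Scarna2 and Terc lie close beneath it.

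Genes for the partners of these RNAs were tested with limma over all 21078 genes. The RNAs were chosen by their fraction differences, so the sizes of theirs and those of the partner genes are not compared. Of 75 protein genes in 8 lists, 11 were called higher in mitochondria (14.7%, against 11.3% of all genes) and 3 lower (4.0%, against 6.79%). Their numbers called with time were 5 higher and 1 lower in mitochondria at 1 h (2.99% and 5.11% of all genes), and 10 and 5 at 2 h (5.12% and 8.88%). In nuclei they were 3 and 0 at 1 h (2.50% and 1.06%), with 17 at an unadjusted p under 0.05, and 8 and 7 at 2 h (4.95% and 7.06%). The 2 h change differed between fractions for 0 of the 75 genes by limma (0.968% of all genes), with 13 at an unadjusted p under 0.05. These counts depend on the scaling. As deposited, 4 of the 75 were called higher and 3 lower between fractions, 0 and 10 in mitochondria at 1 h, 1 and 21 there at 2 h, 0 and 55 in nuclei at 1 h and 0 and 44 there at 2 h. For all 21078 genes these counts were 1088 and 1753 between fractions, and 148 and 3781, then 358 and 5377, in mitochondria. In nuclei they were 107 and 10118, then 336 and 8031. Quantile normalization gave 3 and 2 between fractions and 1 and 0 in nuclei at 1 h, against 935 and 1093, and 212 and 170, over all genes. The 8 libraries outside the split gave 3 and 0 between fractions, 1 and 0 in nuclei at 1 h, 0 and 2 there at 2 h, and 0 in mitochondria. Effects below are on the centred scale with SE, and the deposited value is added where its direction differs. Of the 52 called effects given below, 17 kept the call whichever single library was left out, 37 kept it after quantile normalization and 5 in the 8 libraries outside the split. The 17 were Pop1, Ruvbl2, Dkc1, Nop10, Exosc10, Nolc1, Nop58, Gemin5 and Snapc4 between fractions, Tep1 and Nop58 in mitochondria at 1 h, Rpp38, Pop1, Nop58 and Bdp1 there at 2 h, Nolc1 in nuclei at 1 h and Bdp1 in nuclei at 2 h.

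Of the 11 listed protein subunits of ribonuclease P and MRP, Pop1, the large scaffold subunit, was higher in mitochondria (0.24 ± 0.05, adjusted p = 0.012). Pop5, a small core subunit, was lower (-0.43 ± 0.12, adjusted p = 0.038). The list's median was 0.18, against -0.00 over all genes. At 2 h Pop1 fell in mitochondria (-0.52 ± 0.09, adjusted p = 0.0046) and in nuclei (-0.50 ± 0.09, adjusted p = 0.0067). Rpp38, which binds the RNA, rose in mitochondria at 2 h (1.10 ± 0.18, adjusted p = 0.0028), and Rpp14 rose there at 1 h (0.59 ± 0.15, adjusted p = 0.038). Rpp38 had 54 to 113 reads in a mitochondrial library. Rpp25 had 0 to 3 reads in every library.

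Among 6 genes of mitochondrial RNA processing and import, Elac2, which cuts the 3′ trailer of tRNAs, was called higher in nuclei at 1 h (0.50 ± 0.11, adjusted p = 0.041) and 2 h (0.42 ± 0.11, adjusted p = 0.036), but it measured -0.21 and -0.11 as deposited. Pnpt1, the polynucleotide phosphorylase implicated in RNA import into mitochondria, fell in nuclei at 2 h (-0.46 ± 0.08, adjusted p = 0.0047). No gene of this list was called between fractions by limma, and 0 had an unadjusted p under 0.05.

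For telomerase, Tert, the reverse transcriptase subunit, had 4 to 45 reads. Of 11 telomerase and H/ACA protein genes, 5 were higher in mitochondria and 0 lower (11.3% and 6.79% of all genes), with a median of 0.19. The 5 became 2 as deposited and 2 with quantile normalization, where 1088 and 935 of all 21078 genes were called higher. The medians were then 0.12 and 0.18, and 0.20 in the 8 libraries. The 5 included the pseudouridine synthase Dkc1 (0.35 ± 0.05, adjusted p = 0.0011), the ATPase Ruvbl2 (0.31 ± 0.04, adjusted p = 0.00064) and the core proteins Gar1 (0.24 ± 0.06) and Nop10 (0.18 ± 0.04). At 1 h in mitochondria Gar1 rose (0.49 ± 0.10, adjusted p = 0.018) and Tep1, a telomerase-associated protein, fell (-0.65 ± 0.11, adjusted p = 0.0054). Nhp2 was called higher at 1 h (0.31 ± 0.07) but measured -0.01 as deposited. Gar1 was still higher at 2 h (0.43 ± 0.10, adjusted p = 0.023).

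Of 6 genes for maturation of the Terc 3′ end, the deadenylase gene Toe1 rose at 2 h in mitochondria (0.71 ± 0.17, adjusted p = 0.0203) and nuclei (0.62 ± 0.17, adjusted p = 0.0398). The cap methyltransferase gene Tgs1 fell in mitochondria at 2 h (-0.33 ± 0.10, adjusted p = 0.0496), and the poly(A) polymerase gene Tent4b fell in nuclei (-0.47 ± 0.10, adjusted p = 0.014). Exosc10, a nuclear exosome nuclease, was higher in mitochondria over the times (0.19 ± 0.03, adjusted p = 0.00496). Of 7 shelterin genes, Acd rose in mitochondria at 2 h (0.45 ± 0.12, adjusted p = 0.034), and Tinf2 was called higher in nuclei (0.50 ± 0.14, adjusted p = 0.043) but measured -0.02 as deposited.

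Of 10 Cajal body and snoRNP protein genes, 3 were higher in mitochondria and 0 lower (11.3% and 6.79% of all genes), with a median of 0.13. The 3 were the coilin partner Nolc1 (0.42 ± 0.02, adjusted p = 2.9e-06), the box C/D core protein Nop58 (0.23 ± 0.03, adjusted p = 0.00052) and the SMN complex gene Gemin5 (0.23 ± 0.05, adjusted p = 0.0069). The 3 became 2 as deposited and 1 with quantile normalization, where 1088 and 935 of all 21078 genes were called higher. With time the called members were all higher on the centred scale, and most turned on the deposited one. Nop58 in mitochondria measured 0.32 ± 0.05 at 1 h (0.00 as deposited) and 0.28 ± 0.05 at 2 h (-0.07). Smn1, the SMN gene, measured 0.38 ± 0.08 at 2 h in mitochondria and 0.04 as deposited. In nuclei Smn1 measured 0.53 ± 0.08 at 1 h (-0.18 as deposited) and 0.38 ± 0.08 at 2 h (-0.14). Nolc1 measured 0.23 and 0.16 in mitochondria and 0.33 and 0.20 in nuclei at 1 and 2 h (± 0.04 each), and was below 0 as deposited in all 4.

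Rpph1 and Rmrp are transcribed by RNA polymerase III from gene-external promoters. The 12 genes tested here are for promoter factors and regulators of this polymerase, and not all, Brf1 and Maf1 among them, are particular to such promoters. Brf2 was not called at 2 h in mitochondria (0.27) or nuclei (0.16). Snapc4, the DNA-binding subunit of the SNAP complex, was lower in mitochondria (-0.28 ± 0.06, adjusted p = 0.013), as was Tbp, the TATA-binding protein (-0.17 ± 0.05, adjusted p = 0.043). At 2 h, 3 of the 12 fell in each fraction, where 8.88% of all genes were called lower in mitochondria and 7.06% in nuclei. Bdp1, a TFIIIB subunit, fell in mitochondria (-0.67 ± 0.08, adjusted p = 0.000497) and nuclei (-0.61 ± 0.08, adjusted p = 0.0012). Pou2f1, the octamer-binding activator, fell in mitochondria (-0.59 ± 0.14, adjusted p = 0.017) and nuclei (-0.70 ± 0.14, adjusted p = 0.0092). Brf1 fell in mitochondria (-0.50 ± 0.13, adjusted p = 0.034), and Maf1, the repressor of RNA polymerase III, fell in nuclei (-0.48 ± 0.10, adjusted p = 0.011). Snapc4 rose in mitochondria at 2 h (0.41 ± 0.11, adjusted p = 0.033) and was called higher in nuclei (0.40 ± 0.11, adjusted p = 0.042), where it measured -0.12 as deposited.

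Of 12 RNA polymerase III subunit genes, Polr3k was higher in mitochondria over the times (0.25 ± 0.07, adjusted p = 0.028). Crcp rose at 2 h in mitochondria (0.60 ± 0.13, adjusted p = 0.013) and nuclei (0.62 ± 0.13, adjusted p = 0.013), and Polr1d, shared with RNA polymerase I, fell in nuclei (-0.43 ± 0.11, adjusted p = 0.027). Polr3c was called higher at 2 h in mitochondria (0.28 ± 0.07) and nuclei (0.29 ± 0.07), but measured -0.07 and -0.24 as deposited.

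Genes whose centred levels ran most like those of the RNAs over the 12 libraries were named as a description, from 9812 candidates. Since the fractions lie apart, such a correlation mostly reflects that separation. Rpph1 was most like Ccnb1ip1 (Pearson's r = 0.9998) and Rmrp most like Ccdc107 (r = 0.9989), the overlapping genes above. Beyond these genes, Snhg3, a snoRNA host gene, was next for Rpph1 (r = 0.985), Rmrp (r = 0.985) and Rprl3 (r = 0.968), and Scarna13 for Rprl2 (r = 0.957). Scarna2 was most like Taf1d (r = 0.994), whose product is a subunit of the RNA polymerase I selectivity factor, then Snhg3 (r = 0.986) and Kcnq1ot1 (r = 0.984). Terc, with few reads, was most like Tatdn1 (r = 0.965), Hps3 (r = 0.934) and Cmtr1 (r = 0.932).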

How the data were processed

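RNA sequencing of 12 libraries was analysed from the authors' processed tables. Per the submitters' processing notes, the builds GRCm38 and mm10 and the tools HISAT2, StringTie and edgeR were used, with no version given. The authors deposited a gene table of log2 RPM values (SeqMonk), in which the lowest value of each library, taken as 0.9 read, turned at least 99.99% of values into whole reads within 0.05. A second deposited table holds FPKM of 7153 transcripts, per the file headers from StringTie. Of 35373 entries of the gene table, 52 repeated a gene and were left out.

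Each library was centred on its median over the 14440 genes above the floor in all 12 libraries. limma 3.58.1 (R 4.3.3) was fitted with 6 group means, a variance trend and robust moderation to 21078 genes that exceeded the floor in 2 or more libraries, and Benjamini-Hochberg adjusted p under 0.05 within a contrast was a call. The fit was tested on simulated counts. The members and gene lists were chosen with earlier results of these data known. Named were the members, genes overlapping or within 1000 bases of them, the called genes of each list (at most 4 a contrast, of smallest p), and the 3 genes most correlated with each member. One listed gene is not reported here and is left out of the list counts. Sequences were aligned locally with Biopython 1.88. The study's text calls the libraries biological replicates without naming separate cultures, so p-values measure only the spread between these libraries. Precision at few reads is limited by counting. Alternatives were the deposited scale, quantile normalization, log2(RPM + 0.1), other filters, a replicate block, each library left out, a term for the library split, and, chosen after seeing the data, the 8 libraries outside it.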

Additional observations from a re-analysis of the deposited data

Results flagged for a closer look

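For 3 values the 2 fractions moved in opposite directions on the centred scale without overlap between the libraries of the times, a difference that was not tested. Such opposite movement without overlap held for 7.18% of all genes at 1 h and 5.27% at 2 h, and for 3.33% and 2.90% with mitochondria higher and nuclei lower, as in these 3. For Rpph1 at 1 h, the mitochondrial change minus the nuclear change was 0.59 (log2), with the mitochondrial groups 0.31 higher and the nuclear groups at -0.28. For Rpph1 at 2 h it was 0.41, from 0.16 and -0.25. For Rmrp at 1 h it was 0.33, from 0.24 and -0.09. As deposited, Rpph1 measured -0.01 in mitochondria and -0.99 in nuclei at 1 h, and Rmrp -0.08 and -0.80, so neither was higher in mitochondria.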

How the results depend on the processing

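The lower level of the 6 RNAs in mitochondria over the 3 times kept its direction under every alternative run, from -2.69 to -2.57 for Rpph1, -2.155 to -1.99 for Rmrp, -2.79 to -2.45 for Rprl2, -2.60 to -2.44 for Rprl3, -1.72 to -1.58 for Scarna2 and -1.56 to -1.17 for Terc. Of 720 values of the RNAs under alternatives, 31 changed sign, 14 of them on the deposited scale and 17 under other alternatives. Of the 31, 5 belonged to differences above 2 SE, all on the deposited scale. Of the rest of the 720, 656 moved by less than the replicate spread and 59 by more. The 5 were Rpph1 (-0.0082) and Rmrp (-0.079) in mitochondria at 1 h, Rpph1 (-0.18) and Rprl3 (-0.10) there at 2 h, and Rprl3 in nuclei at 2 h (-0.27). The same scale turned these called partner genes. In mitochondria they were Nhp2 (-0.012) and Nolc1 (-0.0897) at 1 h and Nop58 (-0.068), Nolc1 (-0.18) and Polr3c (-0.068) at 2 h. In nuclei they were Elac2 (-0.21), Nolc1 (-0.38) and Smn1 (-0.18) at 1 h, and Elac2 (-0.11), Tinf2 (-0.023), Smn1 (-0.14), Nolc1 (-0.33), Snapc4 (-0.12) and Polr3c (-0.24) at 2 h. Of 52 called effects of partner genes, 21 kept direction and call as deposited. The deposited scale differs by construction by the shared shift of each library.

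Genes called numbered 3812 between fractions, 1707 and 2950 in mitochondria at 1 and 2 h, 750 and 2532 in nuclei, and 204 for the fraction difference at 2 h. As deposited the time counts were 3929, 5735, 10225 and 8367, and the last count was 4. Quantile normalization gave 2028 between fractions, 382 in nuclei at 1 h and 1 for the fraction difference. log2(RPM + 0.1) gave 2472 and 3883 in nuclei, and testing genes with reads in at least 1 library gave 5142 and 6696. Requiring reads in all 12 gave 414 for the fraction difference. The 8 libraries outside the split gave 1423 between fractions, 12 and 461 in mitochondria, 2525 in nuclei at 1 h and 1 for the fraction difference. The share of calls that were higher was 62.4% between fractions (38.3% as deposited, 46.1% with quantiles, 72.6% in the 8 libraries). It was 36.9% and 36.6% in mitochondria (3.8% and 6.2% as deposited). It was 70.3% and 41.2% in nuclei (1.0% and 4.0% as deposited, 91.4% and 62.8% in the 8 libraries). Apart from these shifts, the cause was not tested. Leaving out 1 library gave 2895 to 3408 between fractions, 944 to 1629 and 1775 to 2897 in mitochondria, 197 to 3014 and 1118 to 2531 in nuclei, and 60 to 183 for the fraction difference. Nuclei at 1 h ranged widest, with 232 and 197 calls without nuclei 0 h replicate 1 and 2, and 2994 and 3014 without nuclei 2 h replicate 1 and 2.

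The replicate number as a block gave 3740, 1692, 2918, 662, 2494 and 183 calls in the same order. Deviations of same-numbered libraries correlated at -0.331 to 0.334, so the numbers do not pair the libraries. Depth limits Terc and Rprl2, whose mitochondrial libraries hold at most 21 and 32 reads.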
